A study of Mus musculus with 12 samples.

Results

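Prostaglandins, thromboxane and leukotrienes are made from arachidonic acid by a small set of enzymes, and the genes of 10 of them (Ptgs1, Ptgs2, Ptgis, Ptges, Ptgds, Tbxas1, Hpgd, Alox5, Alox5ap and Lta4h) were followed across liver and aortic endothelial cells of mice lacking Dscr-1, ApoE or both. The genes were chosen by name, and a probe set was used only where it was annotated to that gene alone. Of the 10 genes, 9 had such probe sets, 16 probe sets in all, out of 18193 genes and 34945 probe sets annotated to 1 gene. Ptgs1, the constitutive cyclooxygenase, had no probe set annotated to it alone and is not analysed here.

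RNA was measured on Affymetrix mouse genome arrays, 1 array per sample and 12 in all. Liver arrays came from double null mice lacking both Dscr-1 and ApoE (Dscr-1-/-;ApoE-/-), ApoE null mice, Dscr-1 null mice and WT mice, 2 mice each, all adult on the C57BL/6J strain. The labels give a high-fat diet (HFD) of 12 weeks for these mice, whereas the paper's text on the arrays gives normal chow. Aortic endothelial cells were primary cells kept in culture for several days, from double null and from ApoE null mice, 2 arrays each, so that both aortic groups lacked ApoE. The text on the series design gives Dscr-1 as the aortic control, but titles and genotype labels give ApoE null, and these were followed. The alleles are whole-body knockouts, so that liver values hold the effect of losing a gene in every cell of the animal. No aortic cells of WT or of Dscr-1 null mice with intact ApoE were among the samples, and the effect of losing ApoE itself could not be read in those cells. Dscr-1 is the protein of Rcan1, a feedback inhibitor of the calcineurin-NFAT pathway, and ApoE is the apolipoprotein by which lipoprotein remnants are cleared.

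Phospholipases free arachidonic acid from membranes. Cyclooxygenases turn it into prostaglandin H2, from which separate synthases make prostaglandin E2 (Ptges), prostacyclin (Ptgis), prostaglandin D2 (Ptgds) and thromboxane A2 (Tbxas1), and Hpgd inactivates prostaglandins by oxidising them. 5-Lipoxygenase (Alox5), helped by its activating protein (Alox5ap), makes leukotriene A4, which Lta4h turns into the neutrophil attractant leukotriene B4. In vessels, prostacyclin from endothelial cells relaxes smooth muscle and restrains platelets, while leukotrienes are made mainly by myeloid cells.

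Ptgs2, the inducible cyclooxygenase known as COX-2, is a known transcriptional target of NFAT in human T cells and endothelial cells, so its promoter is shown here. The window runs from 250 bases before to 50 bases after the transcription start, at chr1:150099781-150100080 on the plus strand of GRCm38.p6, taken from RefSeq and written 5′ to 3′. Capitals mark the NFAT core motif GGAAA, which was searched on both strands (TTTCC on the other).
Ptgs2: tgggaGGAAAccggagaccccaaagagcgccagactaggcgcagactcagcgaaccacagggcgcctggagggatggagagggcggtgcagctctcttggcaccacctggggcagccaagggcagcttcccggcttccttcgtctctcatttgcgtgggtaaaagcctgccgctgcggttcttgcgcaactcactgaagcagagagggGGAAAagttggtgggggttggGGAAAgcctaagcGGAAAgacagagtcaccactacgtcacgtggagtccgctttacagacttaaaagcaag
The window held 4 matches, 1 near its far end and 3 close together shortly before the start. A 5-letter motif is common, and 61.3% of the 32851 mouse promoter windows of the same length held at least 1 match, with a median of 1, while 2.65% held 4 or more. The half-site of the cAMP response element, TGACG or its reverse complement CGTCA, occurred 1 time in the Ptgs2 window and in 20.8% of all windows. Of the other genes with a window in the table, Hpgd and Lta4h held 3 NFAT core matches each, Ptgds held 1, and Ptges, Alox5 and Tbxas1 held 0. A match describes letters only and shows no binding.

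In aortic endothelial cells, double null cells had more Ptgs2 message and less Ptgis message than ApoE null cells on every array, while Lta4h and Alox5 hardly moved. Values are log2 signals as deposited, and a probe set counted as above the filter where it exceeded its array's median (4.45 to 4.5) on at least 2 arrays. Of the 9 genes, 6 were above it in these cells (Ptgs2, Ptgis, Ptgds, Alox5, Alox5ap and Lta4h), and Ptges, Tbxas1 and Hpgd were not. None of the 6 passed at a limma adjusted p under 0.05, where 0.0172% of all 11647 genes tested did, and 0 had an unadjusted p under 0.05, against 4.95% of all genes. On both arrays 1 of the 6 was higher in double null cells without overlap (background 16.8%) and 1 was lower (background 14.3%). The median log2 difference of the 6 was 0.18, against -0.01 over all genes tested. With 2 arrays per group a p-value reflects only how those arrays vary, and an exact permutation test of 2 against 2 cannot go below 0.333, two-sided.

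Ptgs2 was measured by 2 probe sets in aortic cells. The first read 11.19 and 12.65 in double null cells and 10.70 and 10.86 in ApoE null cells, or 11.92 ± 1.04 and 10.78 ± 0.11 (SD, n = 2 each). Both double null arrays lay above both ApoE null arrays, and the double null arrays were far less alike than the ApoE null ones. The second ran the same way, at 7.55 and 9.24 in double null cells against 7.14 and 6.80 in ApoE null cells. The fitted difference was 1.14 on the log2 scale (SE 0.49, limma adjusted p = 1) for the first probe set and 1.42 (SE 0.57) for the second. Arrays with the same number were placed in one run by their source names, and within the runs the double null excess of the first probe set was 0.48 in run 1 and 1.80 in run 2. Without double null replicate 2 the difference was 0.41, and without double null replicate 1 it was 1.87 and passed (limma adjusted p = 2.07e-09), with the lone double null array assumed to vary like the ApoE null ones, a fit in which 3989 of 22927 probe sets passed.

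**Figure D1:**
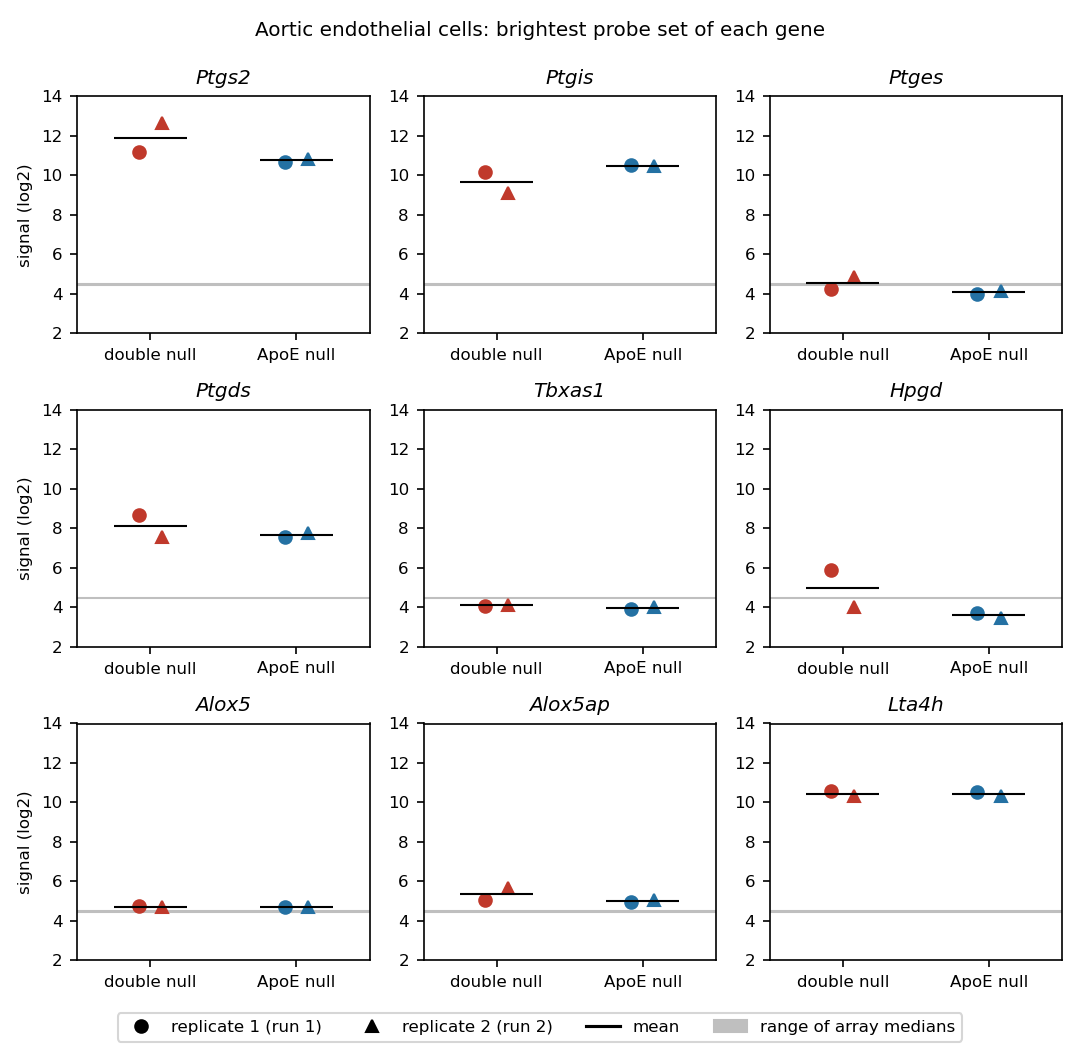
Log2 signal of the 9 genes in aortic endothelial cells, 1 panel per gene, with double null cells on the left and ApoE null cells on the right. Circles are replicate 1 (run 1) and triangles replicate 2 (run 2), bars are means of 2 arrays and the grey band is the range of array medians. Both double null points lie above both ApoE null points for Ptgs2 and below them for Ptgis.

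Among the synthases that use the product of Ptgs2, Ptgis, the prostacyclin synthase, read 10.20 and 9.13 in double null cells and 10.53 and 10.46 in ApoE null cells (means 9.67 ± 0.75 and 10.49 ± 0.05, SD, n = 2 each). Both double null arrays lay below both ApoE null arrays, by 0.33 in run 1 and by 1.32 in run 2. The fitted difference was -0.83 (SE 0.37, limma adjusted p = 1).

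Ptges, the inducible prostaglandin E2 synthase, was read by 3 probe sets, none above the filter. They gave 4.23 and 4.86, 3.91 and 5.59, and 4.28 and 5.77 in double null cells, against 3.99 and 4.16, 3.72 and 3.81, and 3.92 and 3.21 in ApoE null cells. On each probe set both double null arrays lay above both ApoE null arrays, but only double null replicate 2 exceeded its array's median, so that no test was made. Ptgds, the lipocalin-type prostaglandin D2 synthase, parted by run. Its 2 probe sets read 8.70 and 7.55, and 8.19 and 6.10, in double null cells, against 7.56 and 7.77, and 6.35 and 6.50, in ApoE null cells. Double null replicate 1 was the highest array on both probe sets and double null replicate 2 the lowest, so that the groups overlapped, and the difference of the first probe set was 1.13 in run 1 and -0.22 in run 2. Tbxas1, the thromboxane A2 synthase, stayed under the array medians at 4.09 and 4.11 in double null cells and 3.93 and 4.04 in ApoE null cells. Hpgd, the prostaglandin-degrading dehydrogenase, reached 5.92 on double null replicate 1 only, with 4.03 on double null replicate 2 and 3.70 and 3.49 in ApoE null cells. Its other probe set lay between 2.71 and 2.88 on all 4 arrays.

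Of the leukotriene genes, Lta4h, the leukotriene A4 hydrolase, read 10.57 and 10.33 in double null cells and 10.55 and 10.34 in ApoE null cells. The difference was 0.01 (SE 0.18) with a 95% interval of -0.45 to 0.46, so that a change of more than that size in either direction lay outside the interval. Its 2 other probe sets stayed between 2.78 and 3.80, under the array medians. Alox5 lay just above the array medians at 4.74 and 4.68 in double null cells and 4.70 on both ApoE null arrays, a difference of 0.01 with a 95% interval of -0.36 to 0.39. Alox5ap read 5.05 and 5.66 in double null cells and 4.95 and 5.06 in ApoE null cells, which overlapped, with only double null replicate 2 standing apart.

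The steps before and after these enzymes were read from 4 lists of other genes. Of 12 listed genes for further prostanoid enzymes and transport, 9 were tested in aortic cells, 6 higher and 3 lower in double null cells. Of 15 further leukotriene enzymes and lipoxygenases 5 were tested (4 higher, 1 lower), of 16 genes for arachidonic acid release 7 (6 higher, 1 lower), and of 14 prostanoid and leukotriene receptors 4 (2 higher, 2 lower). None of these genes passed after adjustment over all probe sets, and 4 of those tested had an unadjusted p under 0.05, as had 4.95% of all genes.

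Those 4 were Slco2a1, Ptger4, Ltc4s and Akr1c18. Slco2a1, the transporter that takes prostaglandins into cells for inactivation, read 9.53 and 8.41 in double null cells and 10.44 and 10.41 in ApoE null cells. Ptger4, the prostaglandin E2 receptor EP4, read 8.48 and 7.81 in double null cells and 9.62 and 9.28 in ApoE null cells. Ltc4s, the leukotriene C4 synthase, read 7.56 and 7.65 in double null cells and 6.98 and 6.59 in ApoE null cells. The 2 double null arrays lay below both ApoE null arrays for Slco2a1 and Ptger4 and above them for Ltc4s. The fitted differences were -1.45 for Slco2a1 (SE 0.38, limma adjusted p = 0.839), -1.30 for Ptger4 (SE 0.28, adjusted p = 0.731) and 0.82 for Ltc4s (SE 0.19, adjusted p = 0.745). The fourth, Akr1c18, a reductase of the aldo-keto family, differed by 0.63 (SE 0.15, limma adjusted p = 0.791). Pla2g4a, the cytosolic phospholipase A2 that frees arachidonic acid, read 8.98 and 9.72 in double null cells and 8.69 and 8.80 in ApoE null cells, a difference of 0.61 (SE 0.28, limma adjusted p = 1). Both double null arrays again lay above both ApoE null arrays.

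**Figure D2:**
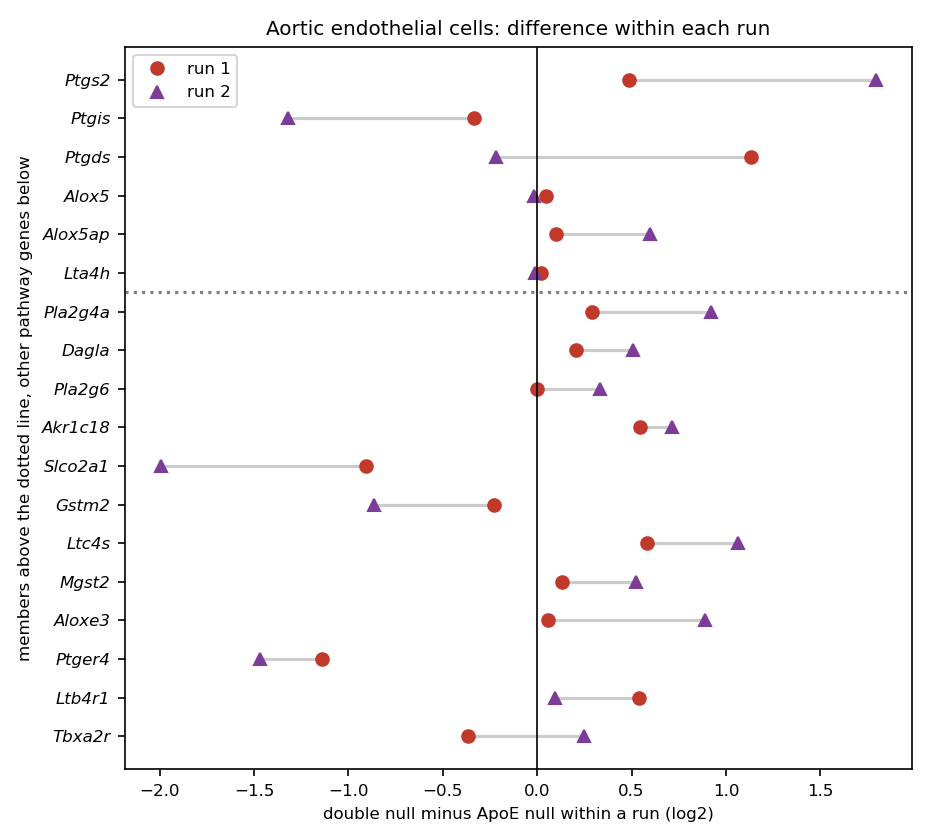
Double null minus ApoE null log2 signal within each run for the 6 enzyme genes above the filter (upper rows) and 12 other genes of the pathway (lower rows), with run 1 as circles and run 2 as triangles joined by a grey line. Ptgs2, Alox5ap, Pla2g4a, Dagla, Akr1c18, Ltc4s, Mgst2, Aloxe3 and Ltb4r1 lie right of 0 in both runs, as does Pla2g6, barely so in run 1. Ptgis, Slco2a1, Gstm2 and Ptger4 lie left of 0 in both. For most genes the distance from 0 is larger in run 2.

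Marker genes were read beside these values. The labelled cell type was borne out by 10 of 10 endothelial markers above the filter. Their summed linear signals were 21634 and 19760 in double null cells and 22204 and 21836 in ApoE null cells. Single endothelial markers moved both ways, with log2 differences from -1.30 to 0.77. Without overlap 3 of the 10 were higher in double null cells and 4 were lower (background 16.8% and 14.3%). Of 12 macrophage markers 5 were above the filter, and their list summed to 741 and 1656 in double null cells against 441 and 423 in ApoE null cells. Lyz2 read 7.46 and 9.47 in double null cells against 5.33 and 5.48 in ApoE null cells, Csf1r 6.72 and 7.0 against 5.54 and 5.51, and Adgre1, the gene of F4/80, 3.37 and 3.42 against 3.34 and 3.11, under the array medians. Fibroblast markers (7 of 8 above the filter) summed to 9257 and 9142 in double null cells and 4827 and 4800 in ApoE null cells, and smooth muscle markers (5 of 8) to 6176 and 2083 in double null cells and 2659 and 2523 in ApoE null cells. None of 8 neutrophil markers was above the filter. Of the 5 macrophage markers above the filter, which leave out Adgre1, 4 were higher in double null cells without overlap (background 16.8%). Among these 4 was Cd14, with a difference of 0.84 (SE 0.28). Of the 7 fibroblast markers 5 had a positive and 2 a negative difference, and 1, Dcn, was higher without overlap and made up most of the sum (12.79 and 13.09 in double null cells, 12.02 on both ApoE null arrays). None of these markers passed after adjustment. The macrophage sum was highest on double null replicate 2, as was Ptgs2, and the smooth muscle sum was highest on double null replicate 1, as were Ptgds and Hpgd. The part of these cells in the differences above was not tested, and in bulk RNA more cells of a type and more RNA per cell cannot be told apart. Double null replicate 2 also stood apart over all genes, with a mean correlation of 0.965 with the other arrays against 0.980 to 0.982 for the rest. Apoe read 8.29 and 6.69 in double null cells and 7.27 and 7.17 in ApoE null cells, all above the array medians. Rcan1 read 10.09 and 10.26 in double null cells on its first probe set, against 9.99 and 9.92 in ApoE null cells. Neither gene thus checked the aortic labels. Hprt, picked out after its values were seen, read 10.68 and 10.63 in double null cells against 6.90 and 6.73 in ApoE null cells. Its bearing on the values above was not tested.

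In liver, 1 of 2 Hpgd probe sets was lower in every mutant animal than in either WT animal, 1 of 2 Ptgds probe sets was lower in every animal without ApoE, and Ptgis was higher in double null than in ApoE null livers. None of these differences passed a limma adjusted p under 0.05. The Ptgds probe set passed the filter mainly through the arrays with ApoE, so that its direction was in part set by the filter. Liver values are linear signals, scaled by the authors so that an array averages 100, and array medians lay between 32.2 and 44.7. Tests were made on log2 of the signal plus 16, which understates the change of low signals. Of the 9 genes, 8 were above the filter in liver and Ptges was not. Most of the 8 read close to the array medians on several arrays, where small signals carry large relative noise, and only Hpgd and Lta4h exceeded the median on all 8 arrays.

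None of the 8 passed after adjustment in any of the 6 liver comparisons, where over 14758 genes the share that passed was 0.0136% for double null against WT and for ApoE null against WT, 0.00678% for Dscr-1 null against WT and for double null against Dscr-1 null, and 0% for double null against ApoE null and for the interaction of both losses. Without overlap of the arrays, double null against WT livers had 1 gene higher and 2 lower (background 19.7% and 18.6%), and ApoE null against WT livers had 0 higher and 4 lower (background 17.3% and 16.7%). Dscr-1 null against WT livers had 2 higher and 2 lower (background 16.3% and 16.9%). Double null against ApoE null livers had 2 higher and 1 lower (background 16.6% and 15.6%). Double null against Dscr-1 null livers had 1 higher and 3 lower (background 17.8% and 16.3%). Alox5 was 1 of the 2 genes higher in Dscr-1 null against WT livers. It was also 1 of the 3 lower in double null against Dscr-1 null livers. Alox5 passed the filter only through the Dscr-1 null arrays, so that its place in these counts was set by the filter. An unadjusted p under 0.05 was reached by 1 of 8 genes for double null against WT (background 5.29%), 1 for ApoE null against WT (background 5.71%), 0 for Dscr-1 null against WT (background 3.82%), 1 for double null against ApoE null (background 5.24%), 2 for double null against Dscr-1 null (background 4.32%) and 0 for the interaction (background 4.30%). The ApoE null comparison had the lowest median log2 difference over the 8 genes, at -0.46, against 0.17 for double null and 0.07 for Dscr-1 null livers, each set against the same 2 WT arrays, while the medians over all genes lay between -0.01 and 0.01.

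The first Hpgd probe set read well above the array medians on all 8 liver arrays. It read 509 and 245 in double null livers, 569 and 616 in ApoE null livers, 514 and 537 in Dscr-1 null livers, and 1454 and 622 in WT livers. All 6 mutant arrays lay below both WT arrays, though ApoE null replicate 2 came within a few units of WT replicate 2. This pattern was picked out after its values were seen, and 3.80% of all genes were lower on all 6 mutant arrays than on both WT arrays. Double null livers differed from WT by -1.39 on the log2 scale (SE 0.52, limma adjusted p = 0.760). Without WT replicate 1 the difference was -0.79, and without double null replicate 2 it was -0.88. The second Hpgd probe set read 83.7 on both double null arrays, 116 and 32.9 in ApoE null livers, 113 and 85.7 in Dscr-1 null livers, and 246 and 114 in WT livers, so that WT replicate 1 was again the highest array. ApoE null livers differed from WT by -1.20 on this probe set (SE 0.56, limma adjusted p = 0.796), with ApoE null replicate 2 at its array median (32.8). The double null and Dscr-1 null arrays lay below both WT arrays and the ApoE null arrays overlapped with them.

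The 2 probe sets of Ptgds ran apart. The first read 7.4 and 47.5 in double null livers, 9.0 and 3.8 in ApoE null livers, 83.5 and 78.5 in Dscr-1 null livers, and 91.1 and 56.6 in WT livers. All 4 arrays without ApoE lay below all 4 arrays with ApoE, as did 1.63% of all genes. Double null replicate 2 was the only array without ApoE above its array median. The probe set thus passed the filter mainly through the arrays with ApoE, and its being lower without ApoE was in part set by the filter. ApoE null livers differed from WT by -1.99 on the log2 scale (SE 0.52, limma adjusted p = 0.595), double null from WT by -1.19 (SE 0.52, adjusted p = 0.821) and double null from Dscr-1 null by -1.33 (SE 0.52, adjusted p = 0.883). The last 2 values were -0.47 and -0.61 without double null replicate 1, and -1.91 and -2.05 without double null replicate 2. The second read 45.6 and 47.0 in double null livers, 41.0 and 39.7 in ApoE null livers, 25.2 and 14.7 in Dscr-1 null livers, and 41.5 and 22.6 in WT livers. Here the arrays without ApoE tended to the high side and overlapped with WT, so that the direction for Ptgds depends on the probe set.

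Ptgis read 39.6 and 81.2 in double null livers, 6.9 and 4.9 in ApoE null livers, 14.8 and 58.9 in Dscr-1 null livers, and 7.3 and 68.2 in WT livers. Both ApoE null arrays were lowest, but the WT and Dscr-1 null groups each held 1 low and 1 high array. Double null livers differed from ApoE null by 1.75 (SE 0.69, limma adjusted p = 0.713), and ApoE null from WT by -1.02 (SE 0.69, adjusted p = 0.872). The interaction, which asks whether losing Dscr-1 acts differently with and without ApoE, was 1.63 (SE 0.98). The ApoE null arrays were far under their medians, so that these sizes depend on the offset, and the double null difference was 3.08 with an offset of 1 and 0.81 with an offset of 64. The difference from WT was -0.09 without WT replicate 2 and -1.94 without WT replicate 1, and leaving out single arrays took the interaction from 0.70 to 2.56.

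Tbxas1, which in liver is known from resident macrophages, read 67.0 and 69.3 in double null livers, 76.3 and 29.5 in ApoE null livers, 19.8 and 23.5 in Dscr-1 null livers, and 50.5 and 46.2 in WT livers. The double null arrays lay above WT and the Dscr-1 null arrays below it, while 1 ApoE null array was the highest of the 8 and the other lay between the WT and Dscr-1 null arrays. Double null differed from Dscr-1 null livers by 1.16 (SE 0.42, limma adjusted p = 0.826), and the interaction was 1.15 (SE 0.60), or 0.64 without ApoE null replicate 2.

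**Figure D3:**
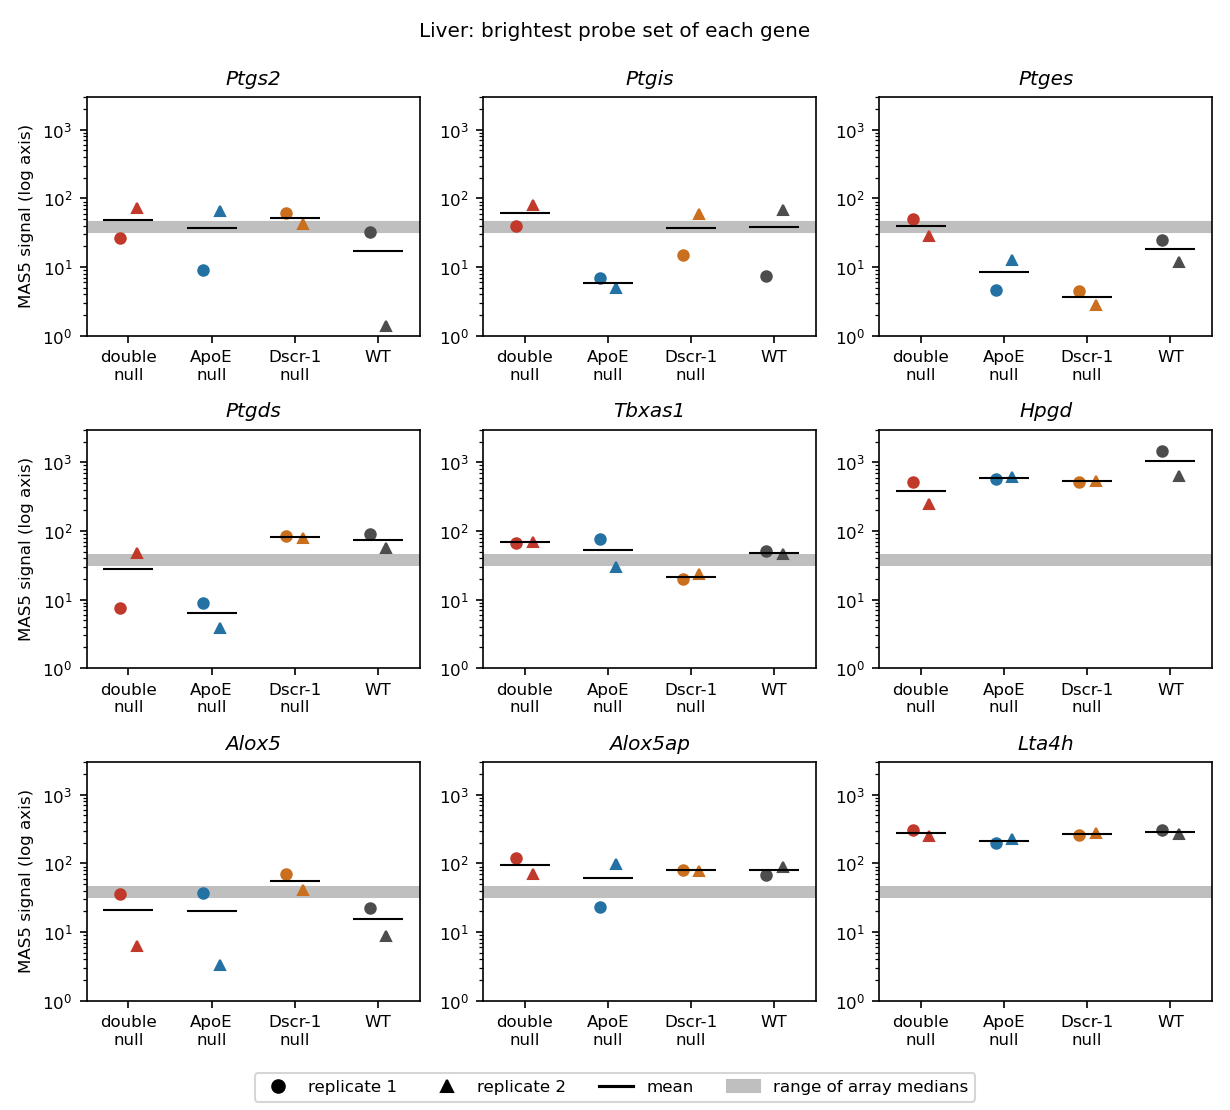
Liver signal of the 9 genes on a log axis, 1 panel per gene, with double null, ApoE null, Dscr-1 null and WT livers in that order. Circles are replicate 1 and triangles replicate 2, bars are means of 2 mice and the grey band is the range of array medians. On the probe sets shown, all 6 mutant points lie below both WT points for Hpgd, the double null and ApoE null points lie below the others for Ptgds, and several genes have pairs of points more than 5-fold apart.

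Ptgs2 stayed low in liver and its probe sets did not run together. The one above the filter read 26.1 and 72.0 in double null livers, 8.9 and 66.4 in ApoE null livers, 60.8 and 42.5 in Dscr-1 null livers, and 32.3 and 1.4 in WT livers. WT replicate 2 was the lowest array and each ApoE-lacking group held 1 low and 1 high array. Dscr-1 null livers differed from WT by 1.21 (SE 0.72, limma adjusted p = 1), and double null livers from WT by 1.07 (SE 0.72, adjusted p = 0.927). Without WT replicate 2 these were 0.47 and 0.33. The probe set that was the brighter one in aortic cells read 2.2 and 1.7 in double null livers, 70.7 and 6.4 in ApoE null livers, 4.3 and 26.2 in Dscr-1 null livers, and 3.7 and 4.4 in WT livers, under the array medians on all arrays but ApoE null replicate 1. Ptges was likewise under the medians on all arrays but 1, and its main probe set read 50.7 and 28.2 in double null livers, 4.7 and 12.5 in ApoE null livers, 4.5 and 2.8 in Dscr-1 null livers, and 24.4 and 11.7 in WT livers. Both double null arrays were the highest, but only 1 exceeded its array's median, and the other 2 probe sets read 2.1 to 31.6 over the 8 arrays.

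Of the leukotriene genes in liver, Lta4h was measured by 3 probe sets. The first read 305 and 248 in double null livers, 197 and 226 in ApoE null livers, 263 and 280 in Dscr-1 null livers, and 308 and 269 in WT livers. Both ApoE null arrays lay below all others. The difference from WT was -0.06 for double null livers (95% interval -0.86 to 0.74) and -0.42 for ApoE null livers (95% interval -1.22 to 0.38). The second read 49.0 and 38.3 in double null livers, 105.9 and 76.1 in ApoE null livers, 41.9 and 40.5 in Dscr-1 null livers, and 46.5 and 8.1 in WT livers. Here both ApoE null arrays were the highest, 1.45 above WT on the log2 scale (SE 0.49, limma adjusted p = 0.684), so that the direction for Lta4h depends on the probe set. The third read 12.3 to 81.2 over the 8 arrays. Alox5ap read 119 and 70.7 in double null livers, 23.0 and 98.3 in ApoE null livers, 81.3 and 78.3 in Dscr-1 null livers, and 68.3 and 89.7 in WT livers, with all groups overlapping WT. Alox5 read 36.2 and 6.2 in double null livers, 37.2 and 3.3 in ApoE null livers, 69.8 and 41.4 in Dscr-1 null livers, and 22.2 and 8.8 in WT livers. The Dscr-1 null arrays were the highest and the only ones above their array medians. Alox5 thus passed the filter only through that group, so that its being higher there was set by the filter, and no fitted difference is given.

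Of the other genes of the pathway, 9 of 12 for further prostanoid enzymes and transport were tested in liver (6 higher and 3 lower in double null livers, relative to WT), 9 of 15 for leukotriene enzymes and lipoxygenases (5 higher, 4 lower), 13 of 16 for arachidonic acid release (8 higher, 5 lower) and 9 of 14 receptors (8 higher, 1 lower). None passed after adjustment, and an unadjusted p under 0.05 was reached by 1 lipoxygenase and 2 receptors, where 5.29% of all genes reached it. Alox12e, an epidermal-type lipoxygenase, read 2.7 and 2.9 in double null livers, 8.8 and 2.9 in ApoE null livers, 13.9 and 14.1 in Dscr-1 null livers, and 48.8 and 44.1 in WT livers. All 6 mutant arrays lay below both WT arrays, but only the WT arrays exceeded their medians, so that Alox12e passed the filter only through the group where it was high, and no fitted difference is given. Ptger4 read 27.6 and 17.9 in double null livers, 71.8 and 44.0 in ApoE null livers, 43.7 and 41.2 in Dscr-1 null livers, and 3.1 and 5.6 in WT livers. All 6 mutant arrays lay above both WT arrays, as did 4.23% of all genes. The double null and WT arrays were all under their array medians, so that Ptger4 passed the filter only through the other 2 groups, and no fitted difference is given. Ptgfr, the prostaglandin F receptor, read 16.4 and 2.7 in double null livers and 28.7 and 57.5 in WT livers, a difference of -1.22 (SE 0.48, limma adjusted p = 0.783). Both double null arrays and 1 WT array were under their array medians, so that Ptgfr would not have passed the filter on these arrays alone. The transporter Slco2a1 read 250.7 on both double null arrays, 209 and 371 in ApoE null livers, 287 and 206 in Dscr-1 null livers, and 120 and 135 in WT livers, all 6 mutant arrays again above both WT arrays, and double null livers differed from WT by 0.89 (SE 0.40, limma adjusted p = 0.831).

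Facts of the liver arrays that touch these values were as follows. Apoe read 83.7 and 79.8 in double null and 305 and 177 in ApoE null livers, against 19937 to 21510 in Dscr-1 null and WT livers, in accord with the ApoE labels, whereas the Rcan1 probe sets (133.7 to 496.5 for the first) did not check the Dscr-1 genotype, since where they lie relative to the deletion was not stated. Hprt, a housekeeping gene picked out after its values were seen, read 884 and 913 in double null livers, 1019 and 933 in ApoE null livers, 820 and 65.9 in Dscr-1 null livers, and 46.9 and 54.8 in WT livers, so that the 2 Dscr-1 null animals differed from each other. All 9 hepatocyte markers were above the filter. Macrophage markers (12 of 12 above the filter) summed to 19138 and 13260 in double null livers, 13681 and 8814 in ApoE null livers, 6979 and 5799 in Dscr-1 null livers, and 5304 and 7143 in WT livers, and neutrophil markers (7 of 8) to 550 and 490 in double null, 446 and 210 in ApoE null, 296 and 341 in Dscr-1 null, and 242 and 266 in WT livers. The neutrophil sum was highest on the double null arrays. The macrophage sum was highest on double null replicate 1, but ApoE null replicate 1 (13681) exceeded double null replicate 2 (13260). Tbxas1 was above WT in double null livers. It was below WT in Dscr-1 null livers, where the macrophage sums overlapped with WT. The part of these cells in the values above was not tested. ApoE null replicate 1 correlated least with the other liver arrays (0.835 against 0.873 to 0.883), and it was the lowest of the 8 arrays for Alox5ap and the highest for Tbxas1.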

How the data were processed

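The deposited liver values are linear MAS5 intensities that, per the paper's methods, the authors computed with the GeneChip Operating Software and scaled to an average of 100 (the mean after trimming 2% at each end was 100 on each array). The deposited aortic values are log2, with a normalization not given in the sources used; the submitters' notes name Transcriptome Analysis Console. Probe sets were named from the platform annotation (34945 with 1 gene, 932 with several, 9160 with none, 64 controls left out). Liver signals were taken as log2 after adding 16, aortic values were used as deposited, and probe sets above the array median on 2 or more arrays were kept (32005 and 22927). limma (version 3.58.1, under R version 4.3.3) was run per tissue with lmFit and eBayes (1 mean per genotype, 4 and 2 residual degrees of freedom), with Benjamini-Hochberg adjustment over all kept probe sets. The probe set with the highest mean stood for its gene. The fit was tested on simulated data. The number of arrays limits the precision, and no depth applies.

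Members and lists were chosen with earlier results of these data known. Each member is given with its values, a fitted difference mainly where the unadjusted p was under 0.05 or the log2 difference at least 1, and further genes of a list by their lowest p in double null against WT (liver) or ApoE null (aorta), up to 3 per list. The aortic differences of members and single markers were added to this. No liver difference is given for Alox5, Alox12e and Ptger4, which passed the filter there only through groups where they were high. The liver differences of Ptgds are given, although its first probe set passed the filter mainly through the arrays with ApoE, where it was high.

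Same-numbered aortic arrays shared a run by their source names, and their deviations from the group means correlated at 0.297. In liver this was -0.00155 to 0.0293, and the number pairs nothing. Alternatives were other offsets, filters, scalings, probe set rules, moderation, a replicate block, the methods' t-test and leaving out each array.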

Additional observations from a re-analysis of the deposited data

Results flagged for a closer look

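Ptgis, the prostacyclin synthase, ran opposite ways in the 2 tissues under a contrast that is the same by its labels. It was picked out by a rule on these same values, that the arrays do not overlap in either tissue and the directions differ. In double null against ApoE null mice the log2 difference was 1.75 in liver. There both double null arrays lay above both ApoE null arrays, as did 16.6% of all genes. In aortic endothelial cells the difference was -0.83, with both double null arrays below both ApoE null arrays, as for 14.3% of all genes. The ApoE null liver arrays (6.9 and 4.9) were far under their medians, and the liver value was 3.08 with an offset of 1 and 0.81 with an offset of 64. Neither difference passed the limma adjusted p under 0.05. The difference between the tissues was not tested, since their values were normalized separately and are on different scales. Hprt was close in the 2 liver groups, at 884 and 913 in double null and 1019 and 933 in ApoE null livers. In aortic cells it lay far apart, at log2 values of 10.68 and 10.63 in double null and 6.90 and 6.73 in ApoE null cells. Hprt was picked out after its values were seen, and its bearing on the Ptgis values was not tested.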

How the results depend on the processing

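No member passed a limma adjusted p under 0.05 in any of the 7 comparisons. No alternative turned the direction of the 15 member differences that were refitted, while the other differences in the text were not refitted. The 15 include those of Alox5 in liver, which passed the filter only through the Dscr-1 null arrays. With an intensity trend and robust moderation 1 member passed for double null against WT livers (Hpgd, adjusted p = 0.0403), along with 118 of 32005 probe sets. The methods' t-test at their unadjusted threshold called 1 member in each of the double null, ApoE null and Dscr-1 null comparisons with WT and 1 for double null against Dscr-1 null livers, beside 1779 to 2361 of 32005 probe sets, and 0 after Benjamini-Hochberg adjustment. A ratio of mean signals past 2-fold, with no test, took 3 members in each of these 4 comparisons. It took 2 for double null against ApoE null livers. Over these liver comparisons 7412 to 8470 of 32005 probe sets were past 2-fold. Alox5 was 1 of the 3 members in each comparison that held the Dscr-1 null arrays, through which alone it passed the filter. In aortic cells the ratio took 1 member (Ptgs2, 431 of 22927). Leaving out each array in turn gave 0 members in every liver comparison and 0 to 3 in aortic cells: 3 without double null replicate 1 (Ptgs2, Ptgis and Alox5ap, with adjusted p from 2.07e-09 to 0.0172, among 3989 of 22927 probe sets called) and 1 without double null replicate 2 (Ptgds, adjusted p = 0.000621, among 793), against 6 probe sets with all arrays. There the lone double null array was assumed to vary like the ApoE null arrays, which were close to each other. With the run as a replicate block in aortic cells, Ptgs2 differed by 1.14 (SE 0.38, limma adjusted p = 0.791) and 0 members passed, and a replicate block changed no call in liver. The liver difference of Ptgds between ApoE null and WT was -3.39 with an offset of 1, -0.96 with an offset of 64 and -0.86 over the mean of its probe sets. Signals near the array medians limit what these arrays can show for most members in liver.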

Other observations

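Over the 8 liver arrays, the genes whose log2 values ran most like Hpgd were Cxcl12 (Pearson r = 0.967), Enpep (0.956) and Mydgf (0.951). For Lta4h they were Jam2 (0.974), Tmem223 (0.970) and Nicn1 (0.953), and for Alox5ap Ext2 (0.991), Zfp932 (0.986) and Pgp (0.977). These are the highest coefficients among all genes above the filter and are given as a description.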
